A study of Mus musculus with 43 samples.

Results

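The genes described here were 34 genes of glucose breakdown, lactate handling and the citric acid cycle, named by symbol in a list, among 35825 genes measured in single neurons of the mouse lateral nucleus accumbens that project to the ventral tegmental area (NAcLat→VTA cells). They comprised 2 glucose transporters, 14 glycolysis genes, 4 lactate genes, 4 genes of the pyruvate dehydrogenase complex and 10 citric acid cycle genes. All 34 were among the 10802 genes that passed a filter on low values, namely more than 15 counts per 1000000 counts of the cell (CPM) in at least 5 cells and a mean of at least 4 CPM. The filter was applied over all cells without regard to diet.

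The cells were from C57BL/6 J mice of both sexes, 6 to 8 weeks old, kept on regular chow (REG, labelled NORM) or given free access to standard chow and a 60% fat chow for at least 4 weeks (HFD). In both groups fluorescent beads were injected into the VTA 7 days before recording, bead-labelled cells were patched in slices held in solutions containing sucrose and glucose, and the cytosol was then drawn into the pipette for sequencing. There were 23 REG and 20 HFD cells, of which 13 REG and 5 HFD cells carried the label of batch 1, and 10 REG and 15 HFD cells that of batch 2. The recordings came from 10 REG and 11 HFD mice, and the labels tie no cell to a mouse, so each diet counted as 1 sample and no test between diets was made.

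Glycolysis splits glucose into pyruvate in the cytosol and yields a little ATP. Pyruvate is then reduced to lactate by lactate dehydrogenase, which also works in reverse, or enters the mitochondrion, where the pyruvate dehydrogenase complex turns it into acetyl-CoA for the citric acid cycle. Neurons have a high demand for ATP to keep up ion gradients, and the isozymes they use at several of these steps differ from those of glia and muscle.

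Total estimated counts ran from 176961 to 16919600 per cell, with medians of 1427700 in REG and 1416980 in HFD cells. Lars2 and Gm19220 together took 2.74 to 85.8% of the counts of a cell. Gad1, Gad2, Drd1, Tac1, Pdyn and Ppp1r1b, markers of GABAergic and D1 medium spiny neurons, were detected in all 43 cells. Of the same lists, Bcl11b was detected in 42 cells and Slc32a1 in 36 (23 after each cell was thinned to 150000 counts). The D2 markers Penk, Adora2a and Drd2 were detected in 35, 13 and 9 cells and summed to 0 to 582 CPM in REG and 0 to 1380 CPM in HFD cells. The glutamatergic markers Slc17a8, Slc17a7 and Slc17a6 were detected in 27, 25 and 6 cells and summed to at most 38.98 CPM in REG and 66.9 CPM in HFD cells. The summed CPM of 7 microglial markers spanned 0.34 to 1326 in REG and 2.61 to 1467 in HFD cells, that of 8 astrocyte markers 10.3 to 1145 and 30.2 to 1325, and that of 6 oligodendrocyte markers 1.41 to 1126 and 3.59 to 1782. Of the 6 endothelial markers, Cldn5, Cdh5 and Tek were each detected in 1 cell, whereas Pecam1 was detected in all 43 and made most of a summed level of 18.6 to 2309 CPM in REG and 44.8 to 4078 CPM in HFD cells. The part of RNA from other cells in the results below was not tested.

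The promoter sequences shown first belong to the 4 genes of the pyruvate dehydrogenase complex and to Idh3g, since 4 of these 5 genes were lower in HFD cells in both batches and the remaining one, Pdha1, was not. Each is the stretch from 250 to 51 bases before the RefSeq start of the gene (200 bases, build GRCm38.p6), written in the direction of the gene. Capitals mark matches on either strand to the core of the hypoxia response element (ACGTG), the GC box (GGGCGG) or the CCAAT box (CCAAT). The first 3, Pdhb (chr14:8173043-8173242), Dlat (chr9:50659831-50660030) and Dld (chr12:31351522-31351721), lie on the minus strand, as do Pdha1 (chrX:160138481-160138680) and Idh3g (chrX:73786948-73787147).
Pdhb: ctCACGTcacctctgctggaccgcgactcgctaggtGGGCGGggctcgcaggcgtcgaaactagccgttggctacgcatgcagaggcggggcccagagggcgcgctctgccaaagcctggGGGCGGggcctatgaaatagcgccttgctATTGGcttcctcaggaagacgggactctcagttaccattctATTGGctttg
Dlat: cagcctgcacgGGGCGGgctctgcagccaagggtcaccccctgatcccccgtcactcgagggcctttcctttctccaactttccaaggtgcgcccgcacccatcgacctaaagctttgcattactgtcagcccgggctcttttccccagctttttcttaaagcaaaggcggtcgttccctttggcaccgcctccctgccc
Dld: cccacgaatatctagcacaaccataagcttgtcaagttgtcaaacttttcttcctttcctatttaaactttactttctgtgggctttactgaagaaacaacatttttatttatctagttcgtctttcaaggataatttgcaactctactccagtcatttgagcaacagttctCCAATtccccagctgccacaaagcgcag
Pdha1: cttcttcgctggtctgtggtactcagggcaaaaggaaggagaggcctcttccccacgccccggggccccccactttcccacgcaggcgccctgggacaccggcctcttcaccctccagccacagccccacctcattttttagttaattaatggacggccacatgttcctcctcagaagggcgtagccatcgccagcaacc
Idh3g: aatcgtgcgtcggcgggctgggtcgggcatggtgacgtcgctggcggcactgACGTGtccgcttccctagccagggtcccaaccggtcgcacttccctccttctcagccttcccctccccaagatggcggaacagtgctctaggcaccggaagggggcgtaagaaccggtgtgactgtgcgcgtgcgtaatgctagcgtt

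The Pdhb window held 1 hypoxia response element core, 2 GC boxes and 2 CCAAT boxes, the Dlat window 1 GC box, the Dld window 1 CCAAT box, the Idh3g window 1 hypoxia response element core, and the Pdha1 window none of these. Their GC content was 62.5% for Pdhb, 61% for Dlat, 38.5% for Dld, 61% for Pdha1 and 64.5% for Idh3g, so Dld stood apart from the other four. Windows were at hand for 31 of the 34 genes. The core of the hypoxia response element was in 8 of these 31 (25.8%), against 12.9% of 27025 promoters of the same length, and the GC box in 13 (41.9%) against 24.5%. The CCAAT box was in 9 (29.0%) against 28.9%, the estrogen-related receptor element AAGGTCA in 1 (3.23%) against 3.34%, and the NRF1 element in 0 against 2.29%. A palindromic CACGTG counts as a match on both strands. By the GENCODE positions the windows of Pfkl, Aldoa, Gapdh, Ldha, Sucla2 and Mdh1 lay wholly inside the gene, and some others did in part. Ldha and Mdh1 are among the 8 with the hypoxia response element core. The windows printed above lay outside their genes. The median GC content was 57% for the 31 windows and 51.5% for all promoters.

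The pathway was broadly present in these cells. Between 27 and 34 of the genes were detected in a cell (above 0 counts), with a median of 32, and together they made up 0.19 to 2.14% of the counts of a cell. In all 43 cells, 14 genes were detected: Slc2a3, Gpi1, Pfkp, Aldoa, Tpi1, Gapdh, Pgam1, Eno1, Eno2, Pkm, Ldha, Ldhb, Ogdh and Mdh1. Aldoc was detected in the fewest cells, 31 of 43 (72.1%, 95% exact Clopper-Pearson interval 56.3 to 84.7%), followed by the monocarboxylate transporter Slc16a1 in 34 (79.1%, 64.0 to 89.96%). These intervals cover counting error only, and amplified reads are not independent molecules.

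Levels between genes are compared in TPM (transcripts per 1000000), which account for transcript length. Gapdh, which oxidises glyceraldehyde 3-phosphate, had the highest median over cells, 2274 TPM, followed by the aldolase Aldoa with 1192, Ldhb with 815 and the cytosolic malate dehydrogenase Mdh1 with 663 TPM. Next came Eno1 with 496, Tpi1 with 425 and Idh3g, a subunit of NAD-dependent isocitrate dehydrogenase, also with 425 TPM. The lowest medians were those of Slc16a7 (0.65 TPM), Slc2a1 (2.87 TPM) and Slc16a1 (5.50 TPM), which are all transporters. Genes next to each other in this order overlapped widely between cells, since Gapdh itself spanned 359 to 5195 and Aldoa 153 to 3958 TPM. All 10 genes with the highest medians were also in the first 10 among REG cells, and 9 of them among HFD cells.

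**Figure D1:**
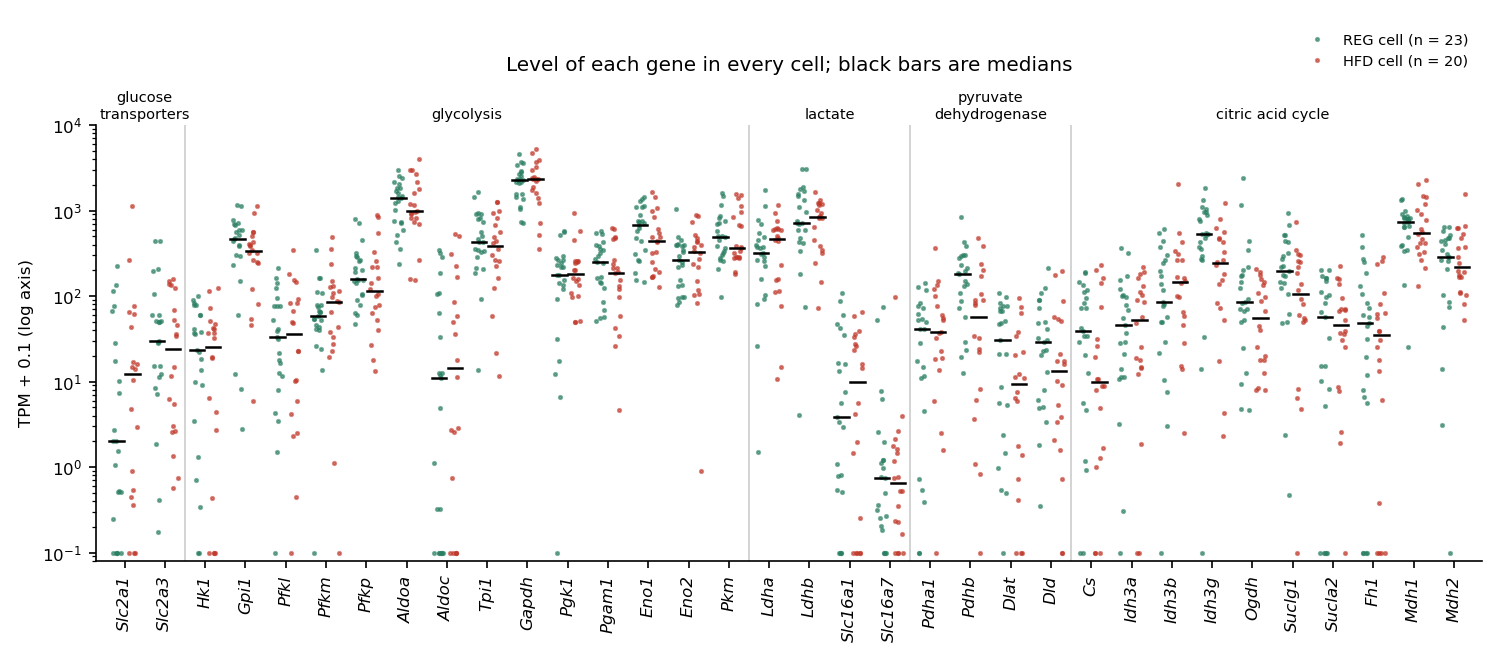
Level of each of the 34 genes in each of the 43 cells, in TPM plus 0.1 on a log axis, with the genes in pathway order, REG and HFD cells in different colours and bars at the median of each diet. The 2 diets overlap for every gene; Gapdh and Aldoa lie highest and the transporters Slc2a1, Slc16a1 and Slc16a7 lowest.

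The spread between cells was smallest for Gapdh, Aldoa and Mdh1. The coefficient of variation of the TPM over the 43 cells was 0.50, 0.65 and 0.65 for these 3 genes, and it reached 3.16 for Slc2a1 and 3.19 for Slc16a7. For Slc2a1 the highest cell stood at 395 times the median, and for Slc16a7 at 152 times.

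For each gene the diets are compared by dividing the mean CPM over HFD cells by the mean over REG cells and taking log2 (the log2 ratio below, with each cell weighted alike). Over the 34 genes the median log2 ratio was -0.13 (quartiles -0.44 and 0.21), and over all 10802 genes of the filter it was also -0.13 (quartiles -0.65 and 0.40). Of the 34 genes, 20 were lower and 14 higher in HFD cells, and 23 lay within 0.5 of 0, while over all genes 57.2% were lower and 47.3% lay within 0.5. Only Slc2a1 differed by more than 2-fold, and it was higher, against a background of 9.04% of all genes that were higher and 14.3% that were lower by more than 2-fold. Most of the 34 are abundant, and among the 1408 genes with a mean of at least 100 CPM the share past 2-fold was 3.69%; none of the 23 genes of the pathway in that range passed it. In both batches 12 genes were lower in HFD cells (35.3% of 34, against 29.2% of all genes) and 4 were higher (11.8%, against 20% of all genes). Opposite directions in the batches were found for 18 genes. Among genes with a mean of at least 100 CPM, 39.1% of the 23 pathway genes were lower in both batches, against 25.2% of the 1408. Higher in both batches were 8.70%, against 21.7%. Within 0.5 of 0 lay 78.3% of these 23, against 72.2% of the 1408. With all cells pooled, the share of the 34 genes that were lower, 58.8%, was thus near that of all genes. In both batches the share that was lower was above the background and the share that was higher below it, which was not tested.

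**Figure D2:**
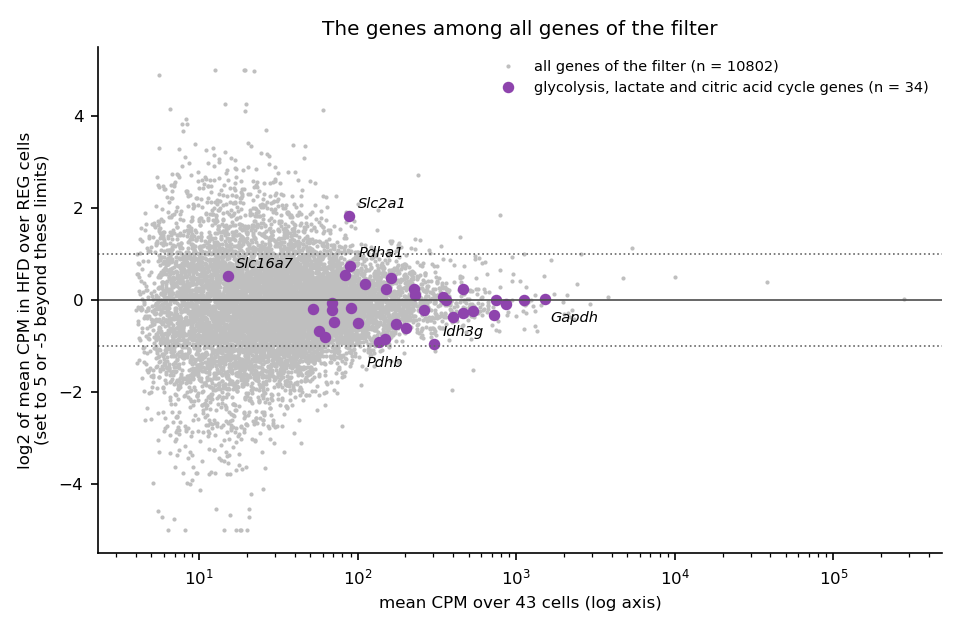
Log2 ratio of mean CPM in HFD over REG cells against mean CPM over 43 cells (log axis) for 10802 genes in grey and the 34 pathway genes in purple, with dotted lines at 2-fold. The pathway genes lie within the grey cloud, and 1 of 34, Slc2a1, lies above the upper line.

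The scaling of the cells sets the level of these ratios. With the size factors of DESeq2 the median of all genes was 0.18 and that of the 34 genes 0.54, and with TMM totals they were 0.01 and 0.01. Abundant genes in general moved up. Over the 1408 genes with a mean of at least 100 CPM the median was 0.55 with DESeq2 size factors and 0.16 with TMM totals. Over the 23 pathway genes in that range it was 0.65 and 0.26. A direction is therefore given below together with its value under DESeq2 size factors where the sign of a gene, sum or list median differs. Leaving out 1 cell at a time turned the sign for 11 genes. The sign was the same in all 14 alternatives, and with any 1 cell left out, for 4 genes: Slc2a1 and Eno2, which were higher in HFD cells, and Dlat and Idh3g, which were lower. The alternatives overlap, since each batch and the mean of both batches are among them. Neither count was set against the share of all genes, so neither sets the pathway apart from other genes.

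**Figure D3:**
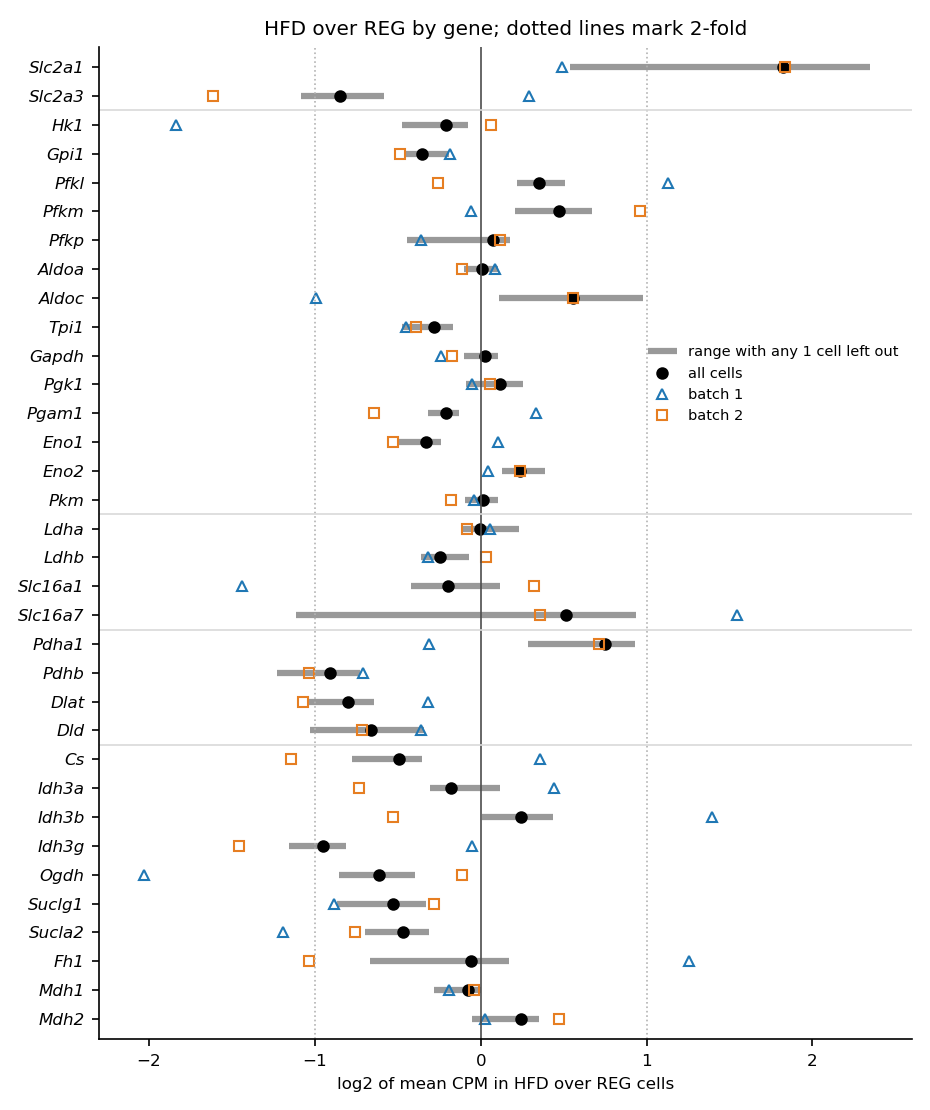
Log2 ratio of mean CPM in HFD over REG cells for each of the 34 genes (black, all cells), with the range when any 1 cell is left out (grey bars) and the values within batch 1 (blue triangles) and batch 2 (orange squares). Dlat, Dld and Pdhb lie below 0 in both batches, and the batches stand on opposite sides of 0 for 18 genes.

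Glucose enters neurons mainly through Slc2a3 (GLUT3), while Slc2a1 (GLUT1) is the transporter of the blood-brain barrier and of glia. Slc2a1 was listed between 0 and 224 TPM in REG cells, with a median of 1.90, and between 0 and 1131 TPM in HFD cells, with a median of 12.1. It was above the REG median in 13 of 20 HFD cells, and the ranges overlapped. The mean was 40.6 CPM in REG and 144 CPM in HFD cells, for a log2 ratio of 1.82, which was 0.49 within batch 1 and 1.83 within batch 2. A single HFD cell of batch 2 held 61.0% of the summed Slc2a1 CPM of the HFD cells. Without that cell the log2 ratio was 0.54, so 1 cell carried the passage of 2-fold. In that cell the endothelial markers Cldn5 and Cdh5 were at 0, as in all HFD cells, and 1 of 6 endothelial markers was detected at 310 CPM, against an HFD median of 318 CPM for the summed list. Its 8 astrocyte markers summed to 263 CPM, with 4 of them detected, against an HFD median of 284 CPM. Its 6 oligodendrocyte markers summed to 330 CPM, with 2 of them detected, against an HFD median of 149 CPM. The 7 microglial markers summed to 3.92 CPM, against an HFD median of 52.3 CPM. Whether RNA from other cells contributed to its Slc2a1 was not tested. The summed counts of Slc2a1 were 6512 in REG (95% exact Poisson interval 6355 to 6672) and 7073 in HFD cells (6909 to 7240).

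Slc2a3 was detected in every cell, between 0.07 and 436 TPM in REG (median 30.1) and between 0.46 and 157 TPM in HFD cells (median 24.1). Its mean was 188 CPM in REG and 104 CPM in HFD cells, for a log2 ratio of -0.85, with 0.29 in batch 1 and -1.61 in batch 2. Within a cell the share of Slc2a3 in the TPM of both transporters does not depend on the total of the cell. This share lay in 2 ranges with no cell between them, since 12 cells lay at 6.54 to 19.2% and 31 cells at 64.2% or more. Of the 12 cells with a low share of Slc2a3, 4 were REG and 8 HFD cells, and 5 of the 12 had fewer than 20 counts of both transporters together. A low share was not always a low level of Slc2a3. The HFD cell with the most Slc2a3, 157 TPM, was among the 12, with a share of 12.2% beside 1131 TPM of Slc2a1. Slc2a3 made up more than 50% in 9 of 13 REG and 4 of 5 HFD cells of batch 1, and in 10 of 10 REG and 8 of 15 HFD cells of batch 2. The median share was 94.1% in REG and 80.3% in HFD cells, and 15 of 20 HFD cells were below the REG median. The difference of -13.8 percentage points was -9.17 without the cells below 500000 counts.

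Glycolysis as a whole hardly differed between the diets. The 14 genes summed to a mean of 6728 CPM in REG and 6596 CPM in HFD cells, for a log2 ratio of -0.03, which was -0.07 within batch 1 and -0.16 within batch 2, and 0.84 with DESeq2 size factors. The median log2 ratio of the 14 genes was 0.02, and 13 of them lay within 0.5 of 0. None passed 2-fold.

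The first steps prepare glucose for cleavage. Hk1, the main hexokinase of the brain, had a median of 23.3 TPM in REG and 25.6 TPM in HFD cells, with a log2 ratio of -0.21, but of -1.83 in batch 1 and 0.06 in batch 2, and 0.23 with DESeq2 size factors. Gpi1, which converts glucose 6-phosphate to fructose 6-phosphate, ranged from 2.66 to 1166 TPM in REG (median 471) and from 5.86 to 1140 TPM in HFD cells (median 335). Only 5 of 20 HFD cells were above the REG median of Gpi1, with a log2 ratio of -0.36 that was negative in both batches (-0.19 and -0.49) and 0.36 with DESeq2 size factors. Phosphofructokinase, which commits sugar to glycolysis, is built from 3 isozymes, and all 3 were seen. Pfkp, the platelet type that prevails in brain, had the highest median of the 3, 154 TPM, against 64.5 for the muscle type Pfkm and 33.3 TPM for the liver type Pfkl. The log2 ratio of HFD to REG was 0.07 for Pfkp (-0.11 in TPM), 0.47 for Pfkm and 0.35 for Pfkl, and for each of the 3 the batches differed in sign.

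Within a cell the proportions of the isozymes differed between the diets for Pfkp and Pfkm. Pfkp made up a median of 61.99% of the 3 isozymes in REG and 45.4% in HFD cells, and 15 of 20 HFD cells were below the REG median. Pfkm made up 21.96% in REG and 32.8% in HFD cells. The differences for Pfkp and Pfkm had the same sign in batch 1 (62.9 and 48.6% for Pfkp) and in batch 2 (56.3 and 42.2%), and under all alternatives tried for shares. Most of the shares examined kept their sign in this way, even that of Slc16a1 in Slc16a1 and Slc16a7, with a difference of 2.58 percentage points. Pfkp and Pfkm are also parts of 1 total, so their differences are not separate results. They were smaller without some cells: the Pfkp difference of -16.6 percentage points was -9.20 without the 6 cells with microglial markers and -7.07 without the 9 cells below 500000 counts, and the Pfkm difference of 10.8 was 7.08 and 4.98. The log2 ratio of Pfkm was 0.0082 without the cells with microglial markers. Pfkl, at 12.4 and 16.2%, stood in opposite order in the batches.

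The middle steps of glycolysis hold the most abundant genes of the 34, Aldoa and Gapdh. Aldoa was listed at 235 to 3017 TPM in REG (median 1409) and 153 to 3958 TPM in HFD cells (median 976), with a log2 ratio of 0.01. Aldoc, the aldolase of brain that is strong in astrocytes, had medians of 11.01 and 14.5 TPM and a log2 ratio of 0.56, which was -0.99 in batch 1 and 0.56 in batch 2. Aldoa made up a median of 99.2% of both aldolases in each diet and more than 50% in all 43 cells. Tpi1, which interconverts the 3-carbon products, had a log2 ratio of -0.28, negative in both batches (-0.45 and -0.39) and 0.17 with DESeq2 size factors. Gapdh was at 720 to 4576 TPM in REG (median 2249) and 359 to 5195 TPM in HFD cells (median 2331), and its log2 ratio of 0.02 was -0.24 in batch 1 and -0.17 in batch 2. The pooled ratio of Gapdh was thus close to 0, while within each batch its mean was slightly lower in HFD cells.

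The last steps of glycolysis yield ATP and pyruvate. Pgk1, which makes the first ATP, had a log2 ratio of 0.12, and the mutase Pgam1 one of -0.21 (0.03 with DESeq2 size factors). Pkm, the pyruvate kinase of brain, had 0.01, with medians of 491 TPM in REG and 367 TPM in HFD cells. The enolases differed in direction from each other with the batches pooled and in batch 2, but not in batch 1. Eno1, the form found in most tissues, had medians of 682 and 438 TPM and a log2 ratio of -0.33 (0.11 in batch 1, -0.53 in batch 2 and 0.51 with DESeq2 size factors), whereas Eno2, the neuron-specific form, had medians of 265 and 324 TPM and a log2 ratio of 0.24 (0.05 in batch 1 and 0.23 in batch 2). Eno1 was above its REG median in 5 of 20 HFD cells, and Eno2 in 12 of 20. Eno1 made up a median of 68.9% of both enolases in REG (25.5 to 92.0%) and 58.6% in HFD cells (24.3 to 99.7%). This share was lower in HFD cells in batch 1 (74.7 and 58.8%) and batch 2 (66.2 and 58.3%), and in 14 of 20 HFD cells it was below the REG median.

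Lactate dehydrogenase is a tetramer of A subunits (Ldha), which favour lactate formation, and B subunits (Ldhb), which favour its oxidation and prevail in neurons. Ldhb exceeded Ldha in 35 of 43 cells. Ldhb was at 4.01 to 3030 TPM in REG (median 717) and 73.3 to 1669 TPM in HFD cells (median 836), with a log2 ratio of -0.24 (0.31 with DESeq2 size factors). Ldha was at 1.39 to 1726 TPM in REG (median 318) and 10.8 to 1155 TPM in HFD cells (median 464), and its mean CPM was 363 in REG and 362 in HFD cells (log2 ratio 0.74 with DESeq2 size factors). The share of Ldhb had a median of 71.1% in REG and 64.5% in HFD cells, but the diets stood in opposite order in the batches, with 78.2 and 75.4% in batch 1 and 59.95 and 63.1% in batch 2. Without the 6 cells with microglial markers the difference of -6.54 percentage points was -13.3. No direction can thus be given for the balance of the 2 subunits.

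The monocarboxylate transporters carry lactate and pyruvate over the cell membrane. Slc16a7 (MCT2), the neuronal form, was among the lowest of the 34 genes, with medians of 0.65 TPM in REG and 0.54 TPM in HFD cells. Its log2 ratio of 0.52 rested on 1 HFD cell of batch 1 that held 69.3% of the HFD sum, and it was -1.11 without that cell and -1.23 without the cells below 500000 counts. Slc16a1 (MCT1), known from glia and endothelium, had medians of 3.74 TPM in REG and 9.88 TPM in HFD cells and a log2 ratio of -0.20, with -1.44 in batch 1 and 0.32 in batch 2. Summed over the 4 lactate genes the mean was 1008 CPM in REG and 915 CPM in HFD cells, for a log2 ratio of -0.14. This sum has no settled direction, since the log2 ratio was 0.08 with TMM totals, 0.47 with DESeq2 size factors, 0.29 with summed counts, 0.13 for medians over cells and 0.08 without the cells below 500000 counts. Batch 1 gave -0.17 and batch 2 0.0030, and omitting any 1 cell gave -0.21 to 0.04.

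**Figure D4:**
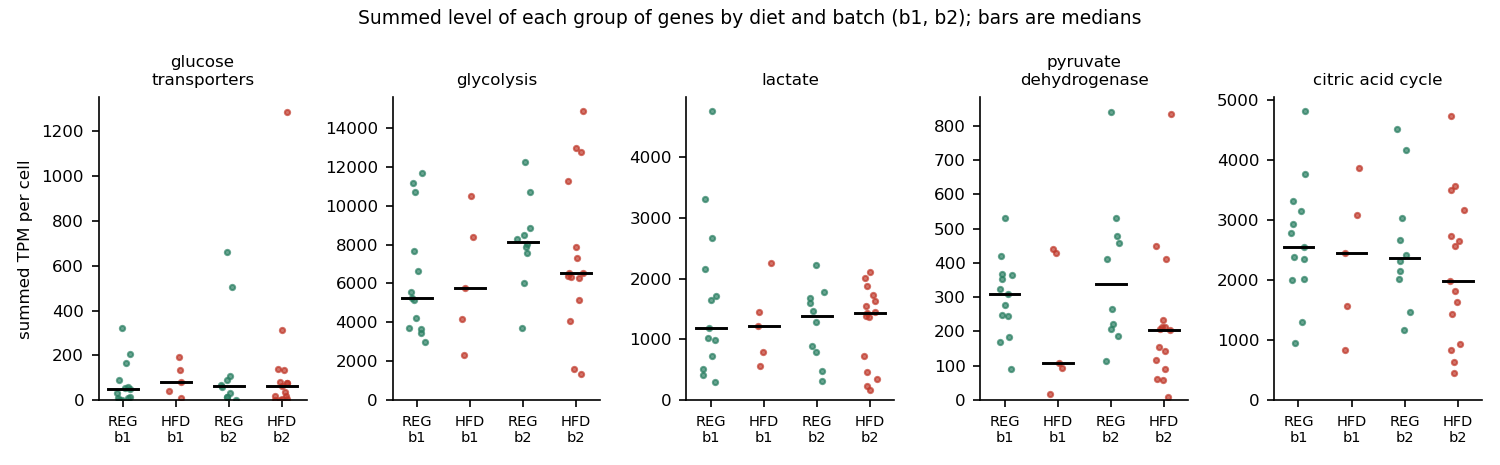
Summed level in TPM of the glucose transporter, glycolysis, lactate, pyruvate dehydrogenase and citric acid cycle genes in each of the 43 cells, by diet and batch, with bars at the median. The diets overlap in each panel, and the pyruvate dehydrogenase sum reaches 7.46 TPM in the lowest HFD cell against 90.4 TPM in the lowest REG cell.

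The pyruvate dehydrogenase complex, the entry of pyruvate into mitochondrial oxidation, is represented by 4 genes, and 3 of them had lower means in HFD cells in both batches, against a background of 29.2% of all genes. These were Pdhb, the beta subunit of the E1 enzyme, Dlat, the E2 enzyme that passes on the acetyl group, and Dld, the E3 enzyme that the 2-oxoglutarate dehydrogenase complex shares. The 4 genes summed to a mean of 387 CPM in REG and 295 CPM in HFD cells, for a log2 ratio of -0.39 (-0.49 in batch 1 and -0.44 in batch 2). The log2 ratio of the sum was 0.31 when counts were summed over cells before scaling and to 0.75 with DESeq2 size factors.

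Pdhb (chr14:8165996-8173025) was listed at 12.5 to 837 TPM in REG cells, with a median of 182, and at 0 to 471 TPM in HFD cells, with a median of 56.8. In the 5 HFD cells of batch 1 it was at 3.58, 0, 388, 79.3 and 173 TPM, against a REG median of 187 TPM in that batch, and in batch 2 the medians were 135 TPM in REG and 34.3 TPM in HFD cells. Only 4 of 20 HFD cells were above the REG median, yet the diets overlapped over most of their range. The mean was 173 CPM in REG and 92.3 CPM in HFD cells. On the log2 scale the ratio was -0.91, with -0.71 and -1.03 in the batches and -1.23 to -0.73 when any 1 cell was left out. It was -0.05 when counts were summed over cells first, and 0.36 with DESeq2 size factors. Pdhb exceeded 15 CPM in 21 of 23 REG and 13 of 20 HFD cells, and after each cell was thinned to 150000 counts it was detected in 23 of 23 and 15 of 20.

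Dlat (chr9:50634633-50659780) was at 0 to 110 TPM in REG (median 30.3) and 0 to 94.97 TPM in HFD cells (median 9.22). Of 20 HFD cells, 5 were above the REG median. Its mean was 77.4 CPM in REG and 44.5 CPM in HFD cells, for a log2 ratio of -0.80, with -0.31 and -1.07 in the batches. It remained below 0 with DESeq2 size factors, at -0.36. Dld (chr12:31331277-31351453) was at 0.25 to 214 TPM in REG (median 28.8) and 0 to 196 TPM in HFD cells (median 13.1), and 6 of 20 HFD cells were above the REG median. Its log2 ratio was -0.66, with -0.36 and -0.72 in the batches and -0.66 with DESeq2 size factors, but 0.34 when counts were summed over cells first.

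Pdha1 (chrX:160122209-160138413), the alpha subunit that pairs with the product of Pdhb in E1 and carries the phosphorylation sites that switch the complex off, stood in the opposite direction. It was at 0 to 142 TPM in REG (median 40.9) and 0 to 361 TPM in HFD cells (median 37.6). Its mean was 67.9 CPM in REG and 114 CPM in HFD cells, for a log2 ratio of 0.75, but of -0.31 in batch 1 and 0.71 in batch 2, and a single HFD cell held 31.4% of the HFD sum. Without the cell that moved it most, the log2 ratio was 0.28.

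Set against each other within a cell, the E1 subunits were in different proportion in the diets. Pdha1 made up a median of 14.97% of the TPM of both subunits in REG and 43.4% in HFD cells, and the share was above the REG median in 16 of 20 HFD cells. The median was 8.42% (REG) against 23.2% (HFD) in batch 1 and 22.6% against 43.5% in batch 2. With the batches pooled the difference was 28.4 percentage points, which was more than the 14.8 within batch 1 and the 20.9 within batch 2. The pooled difference was at least 28.4 and at most 29.0 when any 1 cell was omitted. Its sign was the same with counts, with thinned counts and without the cells that carried microglial markers. Both diets nonetheless spanned nearly the whole scale, 0 to 86.9% in REG and 0 to 100% in HFD cells. The 4 genes together stood at a median of 4.82% of the glycolysis TPM of the same cell in REG and 2.63% in HFD cells. This was lower in HFD cells in batch 1 (4.90 and 4.02%) and in batch 2 (4.36 and 2.37%).

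**Figure D5:**
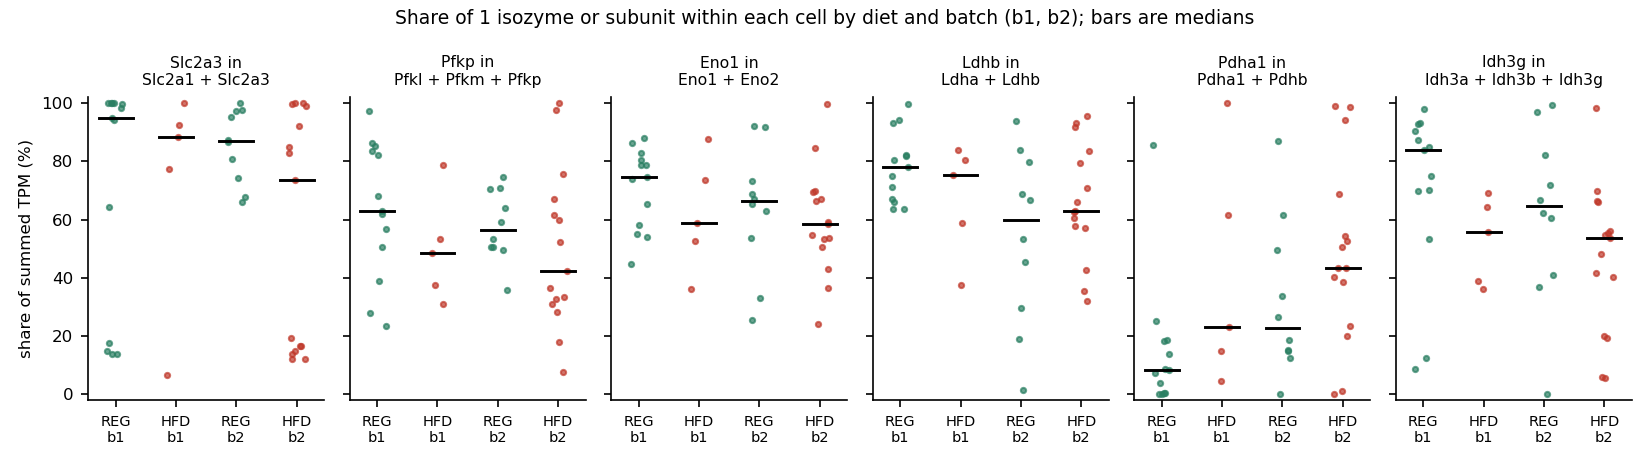
Share of 1 isozyme or subunit in the TPM of its group within each cell, in percent, by diet and batch, with bars at the median. With the batches pooled, Pdha1 in Pdha1 and Pdhb has a higher median in HFD cells (43.4 against 14.97%). That of Idh3g in the 3 isocitrate dehydrogenase subunits is lower (54.1 against 71.7%). The Pdha1 difference is smaller within each batch, and cells of both diets overlap in each panel.

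The 10 citric acid cycle genes summed to a mean of 2422 CPM in REG and 2037 CPM in HFD cells, for a log2 ratio of -0.25 (-0.10 in batch 1 and -0.36 in batch 2) that was 0.07 with TMM totals and 0.73 with DESeq2 size factors. Of the 10, 8 were lower in HFD cells (80%, against 57.2% of all genes). In both batches 5 of them were lower (50%, against 29.2% of all genes): Idh3g, Ogdh, Suclg1, Sucla2 and Mdh1. For Mdh1 the log2 ratios in the batches were only -0.19 and -0.04. Relative to glycolysis in the same cell the sum had a median of 32.1% in REG and 32.3% in HFD cells. Within the batches it was lower in HFD cells, with 40.9 and 36.7% in batch 1 and 31.5 and 29.0% in batch 2.

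Cs, which joins acetyl-CoA and oxaloacetate, had medians of 38.6 TPM in REG and 9.71 TPM in HFD cells, and 5 of 20 HFD cells were above the REG median. Its log2 ratio of -0.49 was 0.36 in batch 1 and -1.14 in batch 2, and 0.13 with DESeq2 size factors. The next oxidation is done by NAD-dependent isocitrate dehydrogenase, whose catalytic subunit is Idh3a and whose other subunits are Idh3b and Idh3g.

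Idh3g (chrX:73778963-73786897) was at 0 to 1825 TPM in REG (median 528) and 2.24 to 1231 TPM in HFD cells (median 241), with 4 of 20 HFD cells above the REG median. The mean was 393 CPM in REG and 203 CPM in HFD cells, for a log2 ratio of -0.95, the lowest of the 34 genes. This came mostly from batch 2, where it was -1.46, while in batch 1 it was -0.05 and the 5 HFD cells were at 798, 83.4, 559, 180 and 1231 TPM around a REG median of 540 TPM. It ranged from -1.16 to -0.81 with any 1 cell left out and was -0.57 with DESeq2 size factors. Idh3a had a log2 ratio of -0.18 (0.30 with DESeq2 size factors) and Idh3b one of 0.24, and both were higher in HFD cells in batch 1 (0.44 and 1.396) and lower in batch 2 (-0.74 and -0.53).

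Within a cell, Idh3g made up a median of 71.7% of the 3 subunits in REG and 54.1% in HFD cells, and 19 of 20 HFD cells were below the REG median. The medians were 83.9 and 55.8% in batch 1 and 64.5 and 53.5% in batch 2. The difference of -17.6 percentage points was -19.97 after thinning and -19.2 to -16.8 with any 1 cell left out. In batch 1, where the level of Idh3g hardly differed, the share did. All 5 HFD cells were below the REG median of their batch there, and 11 of 15 in batch 2.

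Ogdh, the E1 enzyme of the 2-oxoglutarate dehydrogenase complex, had a log2 ratio of -0.61, with -2.03 in batch 1 and -0.11 in batch 2, and 0.58 with DESeq2 size factors. The succinyl-CoA ligase genes Suclg1 and Sucla2 had -0.53 and -0.47, negative in both batches for both genes, and 0.65 and 0.07 with DESeq2 size factors. Fh1, fumarase, had -0.06, with 1.25 in batch 1 and -1.03 in batch 2. Mdh1, which works in the cytosol as part of the malate-aspartate shuttle, had medians of 738 and 550 TPM and a log2 ratio of -0.08 (0.20 in TPM and 1.099 with DESeq2 size factors), and Mdh2, its mitochondrial counterpart, had 287 and 219 TPM and 0.24. Mdh1 made up 67.5% of both in REG and 68.6% in HFD cells.

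Across the 43 cells the citric acid cycle and glycolysis sums in TPM went together with a Spearman rho of 0.68, which was 0.73 within batch 1 and 0.76 within batch 2. Both sums come from the same library, and glycolysis had a rho of 0.60 with the total count of the cell. The pyruvate dehydrogenase sum had a rho of 0.47 with glycolysis (0.30 in batch 1 and 0.62 in batch 2) and the lactate sum one of 0.39 (0.56 and 0.29). With CPM of totals without Lars2 and Gm19220 the value for the citric acid cycle was 0.69 (0.70 and 0.79 in the batches) and that for pyruvate dehydrogenase 0.32, with -0.07 in batch 1 and 0.61 in batch 2. These values are descriptions of cells that share mice.

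Of 75 further genes of these pathways, listed by function, 51 passed the filter. Their median log2 ratio was -0.18 (0.18 with DESeq2 size factors), and 33 were lower in HFD cells (64.7%, against 57.2% of all genes). By more than 2-fold, 1 was higher and 8 were lower. In all 17.6% of the 51 were past 2-fold, against 23.3% of all genes. The remaining genes around pyruvate dehydrogenase were its binding protein Pdhx, its kinases, which switch it off, and its phosphatases, which switch it on. Of these, 5 of the 6 that passed the filter were lower, against 57.2% of all genes. Pdk2, a kinase, had a log2 ratio of -1.002 (-0.80 and -1.27 in the batches), Pdpr, the regulatory subunit of the phosphatase, -1.71 (-1.60 and -1.02), and Pdhx -0.82 (-0.68 and -1.11). Pdhx is named after its value was seen. Pdp1, the catalytic subunit of the phosphatase, was the exception with 0.93 (1.60 and 0.35) and had medians of 30.5 TPM in REG and 44.2 TPM in HFD cells. Both the kinase Pdk2 and the phosphatase subunit Pdpr were thus lower in HFD cells, in each batch.

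Around the cycle, the NADP-dependent mitochondrial Idh2 had -1.95 (-0.81 and -2.73), the malic enzyme Me2 -2.32 (-0.02 and -3.55) and Glud1, which feeds glutamate into the cycle, -1.22 (-1.04 and -1.75). Idh2 was detected in 23 and Me2 in 14 of 43 cells, so their means rest on few cells. The succinate dehydrogenase subunit Sdhb, the most abundant of its list, had -0.31, with -0.41 in batch 2 and 0.40 with DESeq2 size factors. Mpc1, a subunit of the carrier that brings pyruvate into mitochondria, was detected in all 43 cells with medians of 612 TPM in REG and 437 TPM in HFD cells and a log2 ratio of 0.07.

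Among the other lists, Pgm2 had -2.84 and was detected in 14 cells, and the muscle mutase Pgam2 had -3.90, was detected in 9 cells and was at 0 in the HFD cells of batch 1. Rpe, an epimerase of the pentose phosphate pathway, was higher in HFD cells, with 1.503 (0.38 and 2.52), as was Pfkfb2, which sets the level of the phosphofructokinase activator fructose 2,6-bisphosphate, with 0.93 (1.51 and 0.78). The most abundant genes of the remaining lists differed little, with -0.18 for the inositol transporter Slc2a13 and -0.22 for Taldo1 (1.03 and 0.20 with DESeq2 size factors) and 0.19 for Pgm1.

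Several of the 34 genes have near-identical copies among which reads could be divided. Of the 31-base words of Pgk1, 54.7% also occur in Pgk1-rs7, which had a mean of 0.02 CPM, and for Gapdh 26.5% occur in Gm7336, at 29.7 CPM against 1507 for Gapdh. For Pgam1 the share was 37.1% with Pgam1-ps2 (3.57 CPM), and for Eno1 27.7% with Eno1b (1.88 CPM). For Ldhb it was 33.0% with Gm5514 (0.02 CPM). In each pair the named gene held nearly all of the counts. The deposited estimates already divide shared reads between copies, so these counts do not show where such reads came from. With all other genes together, Pkm shared 34.7%, Gpi1 21.6%, Ldha 19.6% and Pdhb 17.9% of their words. The symbol Aldoa covers 2 neighbouring annotated genes, which the tables do not separate.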

How the data were processed

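The authors aspirated the cytosol of 43 recorded cells, made cDNA with SMART-Seq kits and libraries with Nextera XT, and deposited 1 table of estimated counts and 1 of TPM for 35825 gene symbols. The labels name kallisto, edgeR and GRCm38. Neither table holds molecular identifiers. Of the deposited estimated counts above 0, 65.5% lay within 0.01 of a whole number, and they were used as deposited except that edgeR 4.0.16 and DESeq2 1.42.0 received rounded values (R 4.3.3, Python 3.11.15).

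CPM were estimated counts per 1000000 counts of the cell. Genes needed over 15 CPM in 5 cells and a mean of 4 CPM. Diets were compared by the log2 ratio of mean CPM, with no test, since no cell is tied to a mouse. Isozyme shares and levels between genes used the deposited TPM. Depth was also set equal by thinning each cell to 150000 counts. Alternatives were TPM, totals that leave out Lars2 and Gm19220, TMM totals, DESeq2 size factors, medians, summed counts, single batches, edgeR fits, and each cell left out. On simulated counts with 200 changed genes among 10802 the ratio recovered the direction and approximate size of the set changes, as medians over genes. The simulation checked the calculation only. Recovery for single genes with small changes was not tested, nor was recovery in cells that share mice and are unevenly divided between batches.

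All 34 genes are named. Other pathway genes are named when past 2-fold with the same sign in both batches, or most abundant in their list. The genes and lists were chosen with earlier results of these data known. Promoters and their coordinates come from RefSeq (GRCm38.p6) and gene positions from GENCODE (GRCm38). No cell pair had identical counts.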

Additional observations from a re-analysis of the deposited data

How the results depend on the processing

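With 1 sample per diet these values have no test, and cells that share mice are not independent, so the ranges describe these 43 cells. No paired analysis was possible because no label links a REG cell or mouse with an HFD one. Cells without microglial markers and cells above 500000 counts were set apart after seeing the data. In 6 cells (2 REG, 4 HFD) at least 4 of 7 microglial markers exceeded 15 CPM, and 9 cells (4 REG, 5 HFD) had fewer than 500000 counts. Depth limits the low genes most, since the share of cells with the typical gene detected was 97.7%, 93.0% after thinning, 87.2% above 15 CPM and 100% in batch 2. For the values that moved, the cause was not tested.

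The median log2 ratio of the 34 genes, -0.13, was 0.0053 with TMM totals, 0.54 with DESeq2 size factors, -0.077 without Lars2 and Gm19220, -0.061 with summed counts, -0.054 in batch 1, -0.18 in batch 2, 0.00548 with edgeR and -0.032 with edgeR and a batch term, and -0.19 to -0.026 with any 1 cell left out. For summed glycolysis, -0.03, it was 0.0021 in TPM, 0.25 with TMM, 0.84 with DESeq2, 0.0072 without Lars2 and Gm19220, -0.047 thinned, -0.061 for medians, 0.043 with summed counts, -0.066 and -0.16 in the batches, -0.12 as their mean, -0.012 without the cells with microglial markers, 0.084 without the shallow cells, and -0.10 to 0.033 with any 1 cell left out. For the summed citric acid cycle, -0.25, the values in that order were -0.24, 0.065, 0.73, -0.17, -0.24, -0.49, -0.24, -0.10, -0.36, -0.23, -0.20 and -0.19, and -0.38 to -0.20 with any 1 cell left out.

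The count of genes past 2-fold, 1, was 2 in TPM (1 higher, 1 lower), 3 with TMM and 9 with DESeq2 (all higher), 2 without Lars2 and Gm19220, 9 for medians (3 higher, 6 lower), 6 with summed counts, 8 and 7 in the batches, 2 for the mean of the batches, 3 with edgeR, 3 without the shallow cells, and 1 to 3 with any 1 cell left out. The share of all genes past 2-fold was taken for the main ratio only. These other counts therefore have no background beside them and do not set the pathway apart from other genes. The Ldhb share difference, -6.54 percentage points, was -2.80 in batch 1, 3.12 in batch 2, -5.97 thinned, -3.63 in counts and -1.36 for means, and -8.43 to -5.06 with any 1 cell left out. Of all genes, 23.3% were past 2-fold, 52.4% with no filter, 17.7% with at least 10 cells above 15 CPM and 3.69% with a mean of at least 100 CPM.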
